A study of Mus musculus with 9 samples.

Results

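The 34 genes described here make or control the cell's own cholesterol and fatty acids. They were chosen by symbol: 19 enzymes of the mevalonate and sterol pathway, 5 regulators of the sterol regulatory element binding proteins (SREBPs), and 10 enzymes of fatty acid and glycerolipid synthesis. All 34 were found among the 25059 gene identifiers of the deposited tables, and all 34 passed the filter on low values (1 FPKM or more in at least 3 of 9 libraries), as did 14535 genes in all. The cells were granulosa cells, the somatic cells around the oocyte, from ovaries of Kunming mice at postnatal day 21. Every mouse had received 5 IU of PMSG, a gonadotropin that drives follicle growth. The 0 h group (3 libraries) had 48 h of PMSG alone, and the 1 h and 6 h groups (3 libraries each) then received 5 IU of hCG, which acts on the luteinizing hormone receptor and triggers ovulation, and were collected 1 or 6 h later. The labels do not tell whether the 3 libraries of a group stem from different mice, so p-values reflect only how far these libraries differ, and that may be technical. No mice kept without hCG for 1 or 6 h were analysed here, and hours since hCG and time of day cannot be told apart.

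Cholesterol is built from acetyl-CoA through mevalonate, isoprenoid diphosphates and squalene to lanosterol, which a further series of enzymes trims to cholesterol. SREBP2, the product of *Srebf2*, mainly activates these genes, and SREBP1, the product of *Srebf1*, mainly activates fatty acid genes. Both are held in the endoplasmic reticulum by INSIG proteins when sterols are plentiful, and are escorted by SCAP to the Golgi, where proteases release the active factor, when sterols are scarce. In the ovary, cholesterol is the precursor of progesterone, which granulosa cells begin to make in quantity after the ovulatory surge. Levels are in FPKM, fragments per kilobase scaled to the mapped fragments of a library, a unit per length in which genes can be compared with each other.

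Libraries from the same hour were alike, with Pearson's r across genes of 0.990 to 0.993 within a time and 0.944 to 0.987 between times, where genes are not independent replicates. The sum of FPKM was 491920 to 495500 at 0 h, 527034 to 570986 at 1 h and 513434 to 539279 at 6 h, and the depth in reads is unknown. The granulosa markers *Fshr* (85.0 to 98.5 FPKM), *Foxl2* (83.7 to 94.5) and *Inha* (5239 to 5715) were present at 0 h. The summed level of 8 granulosa markers was 3237 to 3533 FPKM at 6 h, against 7715 to 8247 FPKM at 0 h. Markers of other cells were examined too, beside 28.8% called higher and 27.9% lower at 6 h against 0 h over all genes tested. Of 7 oocyte markers 7 were called higher at 6 h than at 0 h. They summed to 59.3 to 91.9 FPKM at 6 h and 34.8 to 50.6 FPKM at 0 h. Endothelial markers summed to 22 to 28.7 FPKM at 6 h and 15.3 to 21.1 FPKM at 0 h (2 of 5 called higher), and 5 stromal markers to 45.3 to 57.3 FPKM at 6 h and 52.5 to 88.7 FPKM at 0 h (2 of 5 called lower). The theca list, led by *Cyp17a1*, summed to 54.8 to 63.9 FPKM at 6 h and 135 to 202 FPKM at 0 h (2 of 4 called lower). Among the defining genes of fat cells, which make much fatty acid, *Adipoq* was at 0.698 FPKM or less in every library, *Cidec* at 0.111 or less and *Cfd* at 0.105 or less. The whole fat cell list of 7 genes summed to 22.9 to 29.0 FPKM at 6 h and 26.2 to 28.6 FPKM at 0 h, mostly from *Plin4*. Of its 3 genes that could be tested, *Plin1* and *Plin4* were called lower and *Retn* higher at 6 h against 0 h. The part of these other cells in the results below was not tested, and in bulk samples fewer cells of a type cannot be told apart from less RNA per cell.

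Sequences upstream of 6 of the genes are shown: 5 genes that rose and *Elovl6*, the gene that fell most. The 6 were picked by their changes, so no link between motif and change can be read from them. RefSeq windows on GRCm38.p6 (the mm10 assembly) were found for 28 of the 34 genes, not for *Sqle*, *Fdft1*, *Fdps*, *Fads1*, *Scd1* and *Scd2*. Each sequence holds the 250 bases before the annotated start, and capitals mark matches on either strand to motifs of fixed spelling. They were TCACNCCAC (one spelling of the sterol regulatory element, an SREBP site), CCAAT (NF-Y), CCGCCC (Sp1), CACGTG (an E-box) and TGACGTCA (a cAMP response element). Sites spelled otherwise are not marked. NF-Y and Sp1 are known partners of SREBPs on many sterol gene promoters.
*Cyp51* (chr5:4104698-4104947, minus strand): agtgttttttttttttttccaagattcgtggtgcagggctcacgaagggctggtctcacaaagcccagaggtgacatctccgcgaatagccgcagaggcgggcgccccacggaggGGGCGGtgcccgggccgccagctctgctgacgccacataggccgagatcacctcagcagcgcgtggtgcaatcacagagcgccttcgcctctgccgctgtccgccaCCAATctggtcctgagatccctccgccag
*Idi1* (chr13:8885356-8885605, plus strand): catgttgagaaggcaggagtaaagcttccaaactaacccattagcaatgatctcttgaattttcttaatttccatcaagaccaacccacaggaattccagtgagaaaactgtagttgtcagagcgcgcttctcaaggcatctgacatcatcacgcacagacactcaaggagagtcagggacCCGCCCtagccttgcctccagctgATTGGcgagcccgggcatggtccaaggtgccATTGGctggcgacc
*Hmgcs1* (chr13:119690101-119690350, plus strand): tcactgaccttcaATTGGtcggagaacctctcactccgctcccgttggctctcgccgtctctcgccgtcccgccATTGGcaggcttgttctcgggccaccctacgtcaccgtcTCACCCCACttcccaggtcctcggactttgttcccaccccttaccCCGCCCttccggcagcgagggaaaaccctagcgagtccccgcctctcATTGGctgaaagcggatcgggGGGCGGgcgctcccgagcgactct
*Insig1* (chr5:28071162-28071411, plus strand): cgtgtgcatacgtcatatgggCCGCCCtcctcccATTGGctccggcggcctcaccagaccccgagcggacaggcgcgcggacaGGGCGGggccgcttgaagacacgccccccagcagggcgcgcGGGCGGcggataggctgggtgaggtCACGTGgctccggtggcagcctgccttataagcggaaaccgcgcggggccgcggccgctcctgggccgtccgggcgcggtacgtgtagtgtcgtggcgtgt
*Acly* (chr11:100528001-100528250, minus strand): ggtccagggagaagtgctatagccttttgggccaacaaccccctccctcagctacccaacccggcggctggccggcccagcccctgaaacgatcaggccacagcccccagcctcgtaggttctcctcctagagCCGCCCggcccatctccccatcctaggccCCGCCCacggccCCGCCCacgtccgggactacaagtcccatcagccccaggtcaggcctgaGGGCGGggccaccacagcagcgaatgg
*Elovl6* (chr3:129532136-129532385, plus strand): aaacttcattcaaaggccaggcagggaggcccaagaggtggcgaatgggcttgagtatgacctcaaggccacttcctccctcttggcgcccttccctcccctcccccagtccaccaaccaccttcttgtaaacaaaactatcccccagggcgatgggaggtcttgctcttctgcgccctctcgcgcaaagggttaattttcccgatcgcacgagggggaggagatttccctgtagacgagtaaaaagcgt
CCAAT stood in 15 of 16 sterol branch genes with a window (93.8%) and in 2 of 7 fatty acid genes (28.6%), against 37.5% of the 27025 genes in the RefSeq table. The 27025 include genes that did not pass the filter on low values here, whereas all 28 members with a window passed it. Motif shares among passing genes alone were not examined. CCGCCC stood in 14 of the 16 sterol genes (87.5%) and in 2 of the 7 fatty acid genes, against 35.4% of all genes. TCACNCCAC was found in *Hmgcs1* alone of the 28 genes, and 1.22% of all genes hold it. Sterol regulatory elements spelled otherwise were not searched for, so the other genes may hold them. CACGTG was found in 6 of the 28 (21.4%), against 6.86% of all genes. TGACGTCA was found in none of the 28, against 1.77% of all genes. Some genes have more than 1 window and were counted if any window held the motif. The sequences of *Cyp51*, *Idi1*, *Hmgcs1* and *Insig1* hold both CCAAT and CCGCCC on one strand or the other, that of *Insig1* also CACGTG, that of *Acly* holds CCGCCC only, and that of *Elovl6* holds none of the 5 motifs. Motifs and calls did not always go together. *Mvk*, *Hsd17b7*, *Ebp* and *Tm7sf2*, called in no comparison, also hold both CCAAT and CCGCCC. *Pmvk* and *Ggps1*, called higher at 6 h against 0 h, hold CCAAT but not CCGCCC. *Scap*, called lower at 6 h against 0 h, holds CCGCCC and CACGTG. These letters are a description of the windows, not evidence of binding.

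In the first hour after hCG 4 of 19 genes in the sterol branch (21.1%) were called higher: *Cyp51*, *Idi1*, *Dhcr7* and *Pmvk*. So were 1 of 5 regulators (*Insig1*, 20%) and 2 of 10 in the fatty acid branch (*Acly* and *Acaca*, 20%). Called lower were 0 of the 34 (0 also at an unadjusted limma p below 0.05). *Hmgcs1*, *Sqle*, *Msmo1*, *Srebf2* and *Elovl5* were higher at an unadjusted limma p below 0.05 but were not called. Of all genes tested, 15.7% were called, 9.68% higher and 5.98% lower, by limma with a Benjamini-Hochberg adjusted p below 0.05. When every library was scaled to one FPKM sum, the mean of the 9, the median gene shifted by −0.144 on the log2 scale and the whole-table split of 1407 higher and 869 lower became 1002 and 2634; quantile normalization gave 1142 and 1252. With the common sum *Cyp51*, *Idi1*, *Insig1*, *Acly* and *Acaca* were still called higher, *Dhcr7* and *Pmvk* were not, and *Scap* and *Scd2* were called lower. The median log2 change was 0.10 over the sterol branch, 0.18 over the fatty acid branch and −0.005 over all genes tested.

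*Cyp51* (chromosome 5, 4081145 to 4104746, mm10), the lanosterol demethylase and the first enzyme after lanosterol, measured 55.9, 54.3 and 51.9 FPKM at 0 h, 112, 79.6 and 102 FPKM at 1 h, and 142, 150 and 132 FPKM at 6 h. The 3 times did not overlap. Its log2 change was 0.83 ± 0.11 (SE) at 1 h against 0 h (limma adjusted p = 0.000985) and 0.54 ± 0.11 at 6 h against 1 h (adjusted p = 0.00260). *Idi1*, the isomerase of isopentenyl diphosphate, measured 36.4, 39.3 and 33.8 FPKM at 0 h, 69.8, 53.3 and 59.6 FPKM at 1 h, and 88.0, 92.7 and 80.01 FPKM at 6 h. It followed the same order with no overlap, and changed by 0.72 ± 0.10 at 1 h (adjusted p = 0.00143). *Dhcr7*, which carries out the last reduction to cholesterol, had 98.9, 88.3 and 87.9 FPKM at 0 h, 122, 117 and 114 FPKM at 1 h, and 185, 175 and 159 FPKM at 6 h. Its change at 1 h was 0.35 ± 0.08 (adjusted p = 0.0125), a call that ended without replicate 1 at 1 h (0.0539) and without replicate 2 at 0 h (0.0506). *Pmvk*, phosphomevalonate kinase, measured 15.7, 17.9 and 14.1 FPKM at 0 h, 25.4, 18.5 and 20.7 FPKM at 1 h, and 22.8, 20.7 and 23.1 FPKM at 6 h. The libraries of 1 h and 6 h overlapped, and all lay above 0 h. The change at 1 h, 0.41 ± 0.12, had an adjusted p of 0.0457 and missed the threshold in most of the alternatives tried (0.0583 to 0.144).

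The SREBP target and inhibitor gene *Insig1* had the smallest adjusted p of the 34 at 1 h. It measured 60.5, 61.0 and 57.3 FPKM at 0 h, 96.9, 88.4 and 95.6 FPKM at 1 h, and 134, 136 and 137 FPKM at 6 h, so that each time stood clear of the others. The change at 1 h was 0.64 ± 0.06 (adjusted p = 8.06e-05). *Acly*, the ATP citrate lyase that supplies cytosolic acetyl-CoA to both branches, measured 104, 116 and 88.1 FPKM at 0 h, 173, 179 and 185 FPKM at 1 h, and 314, 339 and 302 FPKM at 6 h. It rose by 0.80 ± 0.10 in the first hour (adjusted p = 0.000451) and by 0.83 ± 0.10 between 1 and 6 h (7.19e-05).

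**Figure D1:**
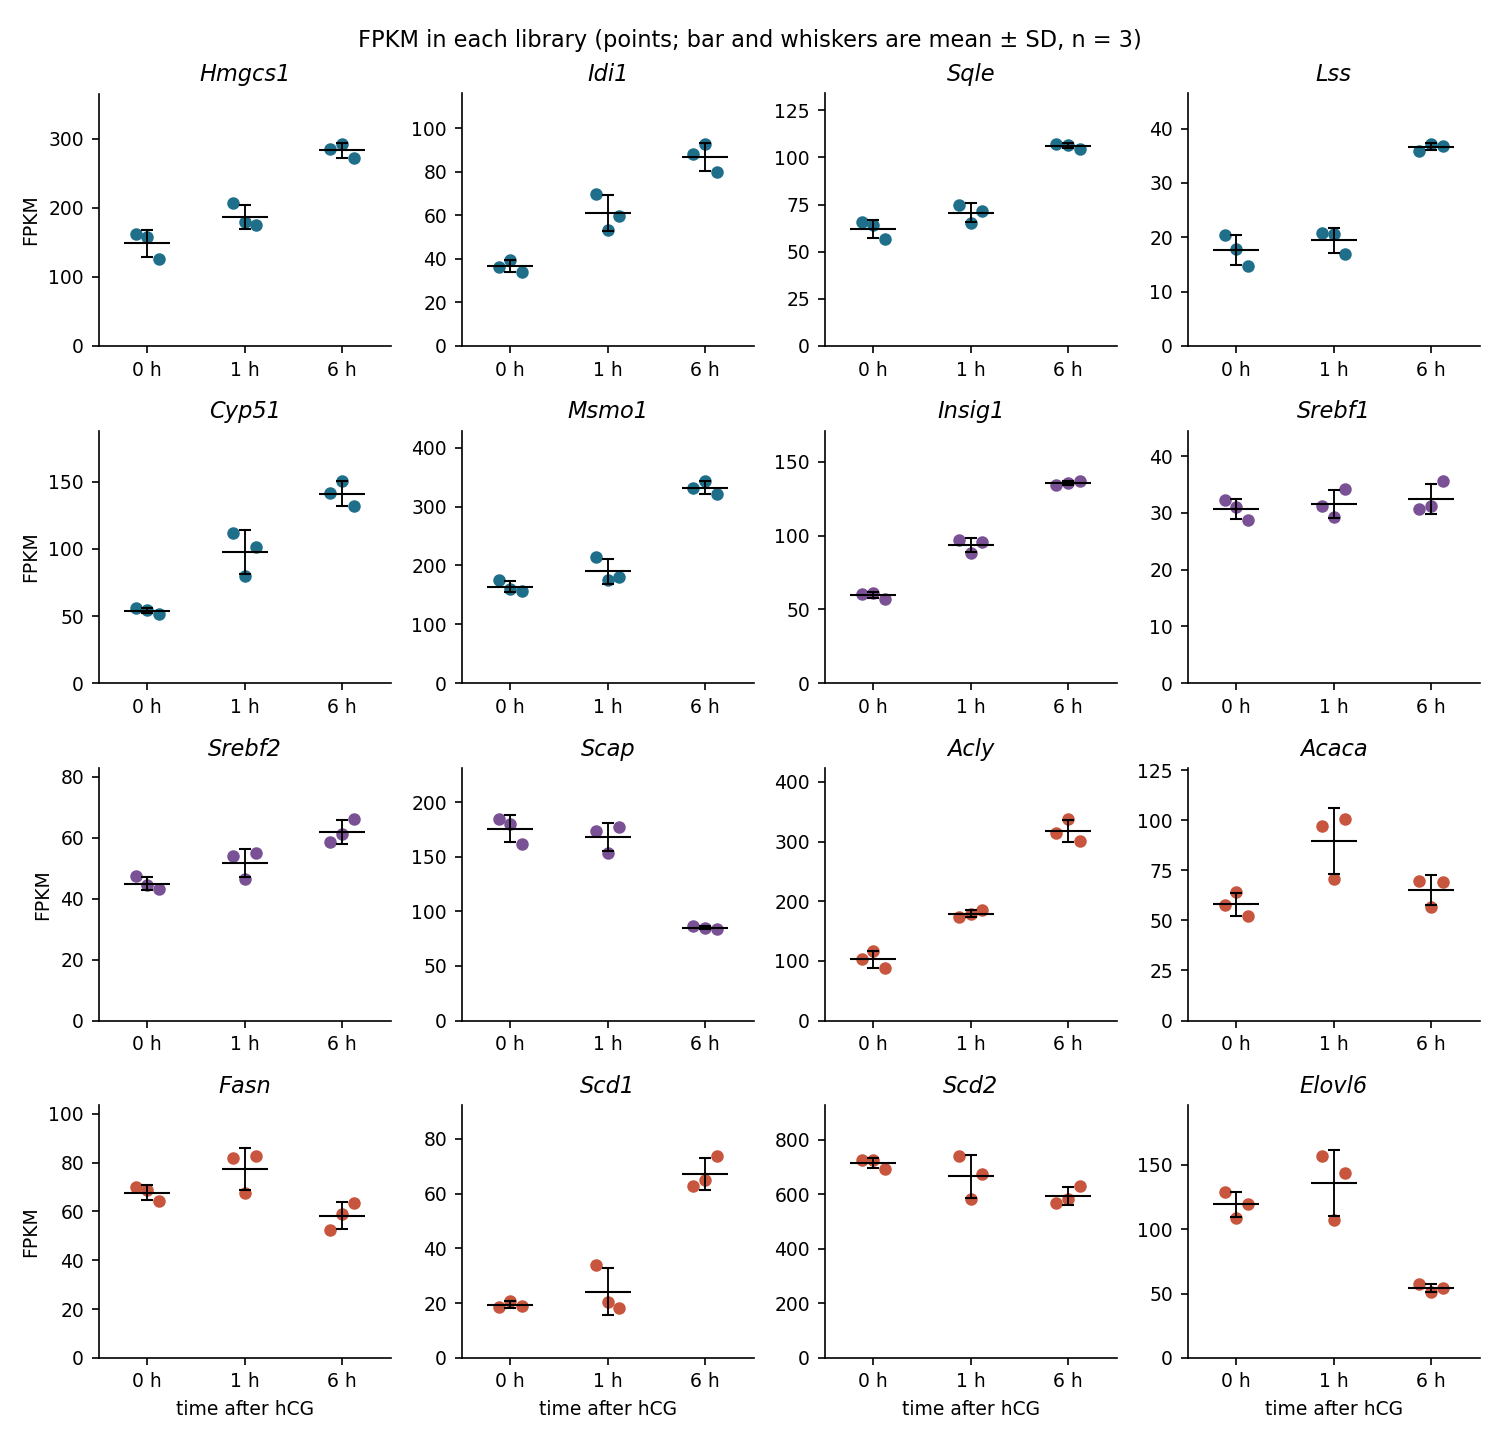
FPKM (vertical axes, from 0) of 16 genes in the 3 libraries at each of 0, 1 and 6 h after hCG (horizontal axes), with mean ± SD, in blue for the sterol branch, purple for regulators and red for the fatty acid branch. *Cyp51*, *Idi1*, *Insig1* and *Acly* step up at both intervals, *Lss*, *Msmo1* and *Scd1* are higher mainly at 6 h, *Acaca* is highest at 1 h, and *Scap* and *Elovl6* are lowest at 6 h.

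By 6 h most of the sterol pathway stood above its 0 h level. In the sterol branch 14 of 19 enzymes were called higher and 0 lower than at 0 h (73.7% of the branch), where 56.6% of all genes tested were called, 28.8% higher and 27.9% lower. The branch's median log2 change was 0.61, against −0.004 over all genes tested. In each library at 6 h the median sterol gene lay 0.54 to 0.60 above the mean of the 0 h libraries on the log2(FPKM + 1) scale, and the 19 genes summed to 1960 to 2130 FPKM, against 1144 to 1350 FPKM at 0 h. In the fatty acid branch 2 of 10 were called higher and 2 lower, with a median of −0.14, and the 10 genes summed to 1463 to 1473 FPKM at 6 h and 1361 to 1466 FPKM at 0 h. No test of one branch against the other was made, since the lists were chosen with results of these data known.

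**Figure D2:**
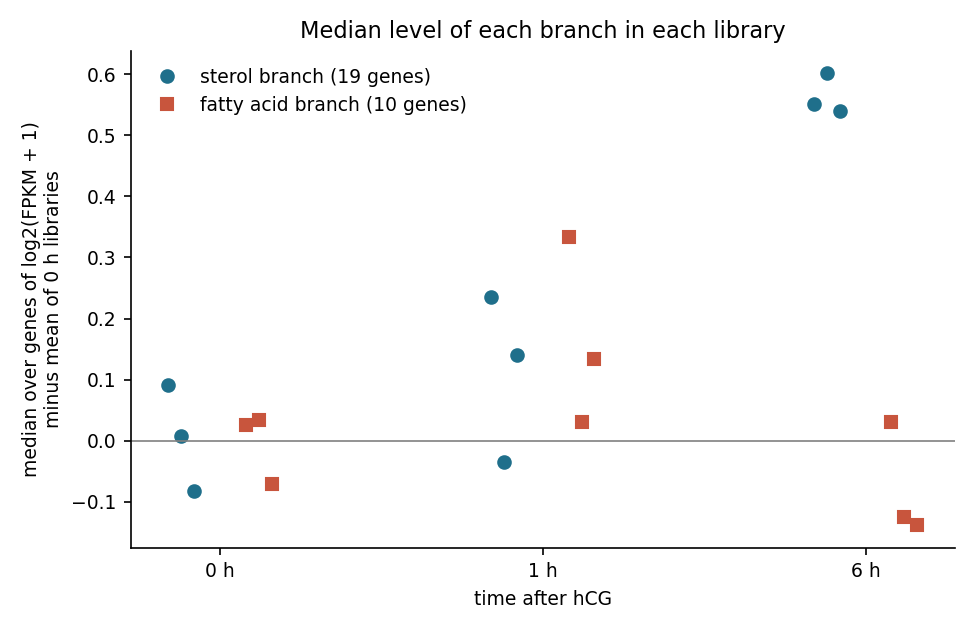
Median over the genes of a branch of log2(FPKM + 1) minus the mean of the 0 h libraries (vertical axis), for each library at 0, 1 and 6 h after hCG (horizontal axis), for 19 sterol genes (circles) and 10 fatty acid genes (squares). The sterol medians lie at 0.54 to 0.60 at 6 h, and the fatty acid medians at −0.14 to 0.03.

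The early steps of the pathway, from acetyl-CoA to farnesyl diphosphate, were raised at 6 h with *Mvk* as the exception. *Hmgcs1*, the HMG-CoA synthase, measured 162, 158 and 126 FPKM at 0 h, 206, 180 and 175 FPKM at 1 h, and 286, 292 and 271 FPKM at 6 h. All 6 h libraries lay above all others, with a log2 change of 0.94 ± 0.10 against 0 h (adjusted p = 4.31e-05), while the change of 0.34 ± 0.10 at 1 h did not pass (0.0536). *Acat2*, the cytosolic thiolase that joins acetyl-CoA units, averaged 46.7 ± 1.29 FPKM (SD, n = 3 for all such means) at 6 h and 30.4 ± 2.34 FPKM at 0 h (adjusted p = 0.000486). *Mvd*, the mevalonate diphosphate decarboxylase, measured 19.5, 18.1 and 16.2 FPKM at 0 h, 18.2, 16.9 and 16.5 FPKM at 1 h, and 26.7, 32.9 and 35.98 FPKM at 6 h. It was 1.77-fold higher at 6 h than at 0 h (0.79 ± 0.11, adjusted p = 0.000214), with the earlier times overlapping. *Idi1* was 2.38-fold higher at 6 h than at 0 h (log2 change 1.23 ± 0.10, adjusted p = 7.00e-06). *Fdps*, which makes farnesyl diphosphate and was the most abundant sterol gene at 0 h, averaged 320 ± 20.1 FPKM at 6 h and 238 ± 36.7 FPKM at 0 h (0.43 ± 0.11, adjusted p = 0.00900). Its call at 6 h ended under quantile normalization (0.0784). *Ggps1*, which diverts farnesyl diphosphate to the lipid anchors of proteins, was the least abundant sterol gene, with 15.7 ± 0.955 FPKM at 6 h and 11.4 ± 0.615 FPKM at 0 h (adjusted p = 0.00113). *Mvk*, mevalonate kinase, stayed between 34.4 and 42.2 FPKM in all 9 libraries and passed no comparison.

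From squalene on, enzymes that were called higher at 6 h against 0 h stood in runs between enzymes that were not called. *Fdft1*, squalene synthase and the first step committed to sterols, averaged 55.4 ± 1.54 FPKM at 6 h and 53.3 ± 6.16 FPKM at 0 h (adjusted p = 0.630). *Sqle*, the squalene epoxidase that follows it, measured 65.6, 64.0 and 56.8 FPKM at 0 h, 75.0, 65.4 and 71.8 FPKM at 1 h, and 107, 107 and 105 FPKM at 6 h. The 0 h and 1 h libraries overlapped, and the 6 h libraries were above both (0.77 ± 0.07 against 0 h, adjusted p = 1.75e-05). *Lss*, lanosterol synthase, measured 20.3, 17.8 and 14.8 FPKM at 0 h, 20.8, 20.6 and 16.8 FPKM at 1 h, and 36.0, 37.2 and 36.9 FPKM at 6 h. It changed little in the first hour (0.14 ± 0.12, adjusted p = 0.477) and was 2.08-fold higher at 6 h than at 0 h (1.03 ± 0.12, adjusted p = 5.10e-05). *Cyp51* showed the largest change of the branch at 6 h, 2.61-fold against 0 h (1.37 ± 0.11, adjusted p = 6.01e-06). *Msmo1*, the methylsterol monooxygenase and the most abundant sterol gene at 6 h, measured 175, 160 and 157 FPKM at 0 h, 215, 176 and 181 FPKM at 1 h, and 332, 343 and 321 FPKM at 6 h. The times did not overlap, and the log2 change at 6 h against 0 h was 1.01 ± 0.08 (adjusted p = 6.93e-06).

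*Nsdhl*, which acts with *Msmo1* to remove methyl groups, averaged 57.9 ± 1.70 FPKM at 6 h and 39.1 ± 2.16 FPKM at 0 h (adjusted p = 8.04e-05). *Sc5d*, a sterol desaturase near the end of the pathway, averaged 187 ± 30.3 FPKM at 6 h and 112 ± 7.49 FPKM at 0 h (adjusted p = 0.00140). Its call at 6 h against 1 h (0.0146) ended without replicate 1 at 6 h (0.0543). *Dhcr7* averaged 173 ± 13.4 FPKM at 6 h and 91.7 ± 6.25 FPKM at 0 h, a log2 change of 0.91 ± 0.08 (adjusted p = 6.87e-06). The members of this stretch that did not pass were *Tm7sf2*, a sterol reductase, *Ebp*, a sterol isomerase, and *Hsd17b7*, a ketosterol reductase. *Tm7sf2* averaged 21.9 ± 0.262 FPKM at 6 h and 22.7 ± 2.86 FPKM at 0 h. *Ebp* averaged 23.0 ± 0.962 FPKM at 6 h and 22.3 ± 0.484 FPKM at 0 h, and *Hsd17b7* 79.7 ± 10.4 FPKM at 6 h and 68.2 ± 10.4 FPKM at 0 h. Their adjusted p-values were 0.759, 0.747 and 0.283, which do not show that the levels were equal. Among protein-coding genes on the opposite strand, *Cyp51* overlaps *Akap9*, *Fdft1* overlaps *Ctsb*, *Ggps1* overlaps *Arid4b* and *Mvd* overlaps *Gm20388*. *Srebf1* overlaps *Rai1* and *Acaca* overlaps *Gm11437* in the same way. The labels do not say whether strand was used, so these pairs could share reads. On the same strand *Tm7sf2* overlaps *Vps51* and *Fdps* overlaps *Gm43738*, pairs that could share reads whatever the strand setting. Genes not annotated as protein-coding also overlap members. Examples on the same strand are *Gm37391* with *Acaca*, *Gm43072* with *Elovl6* and *Gm49502* with *Srebf2*.

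**Figure D3:**
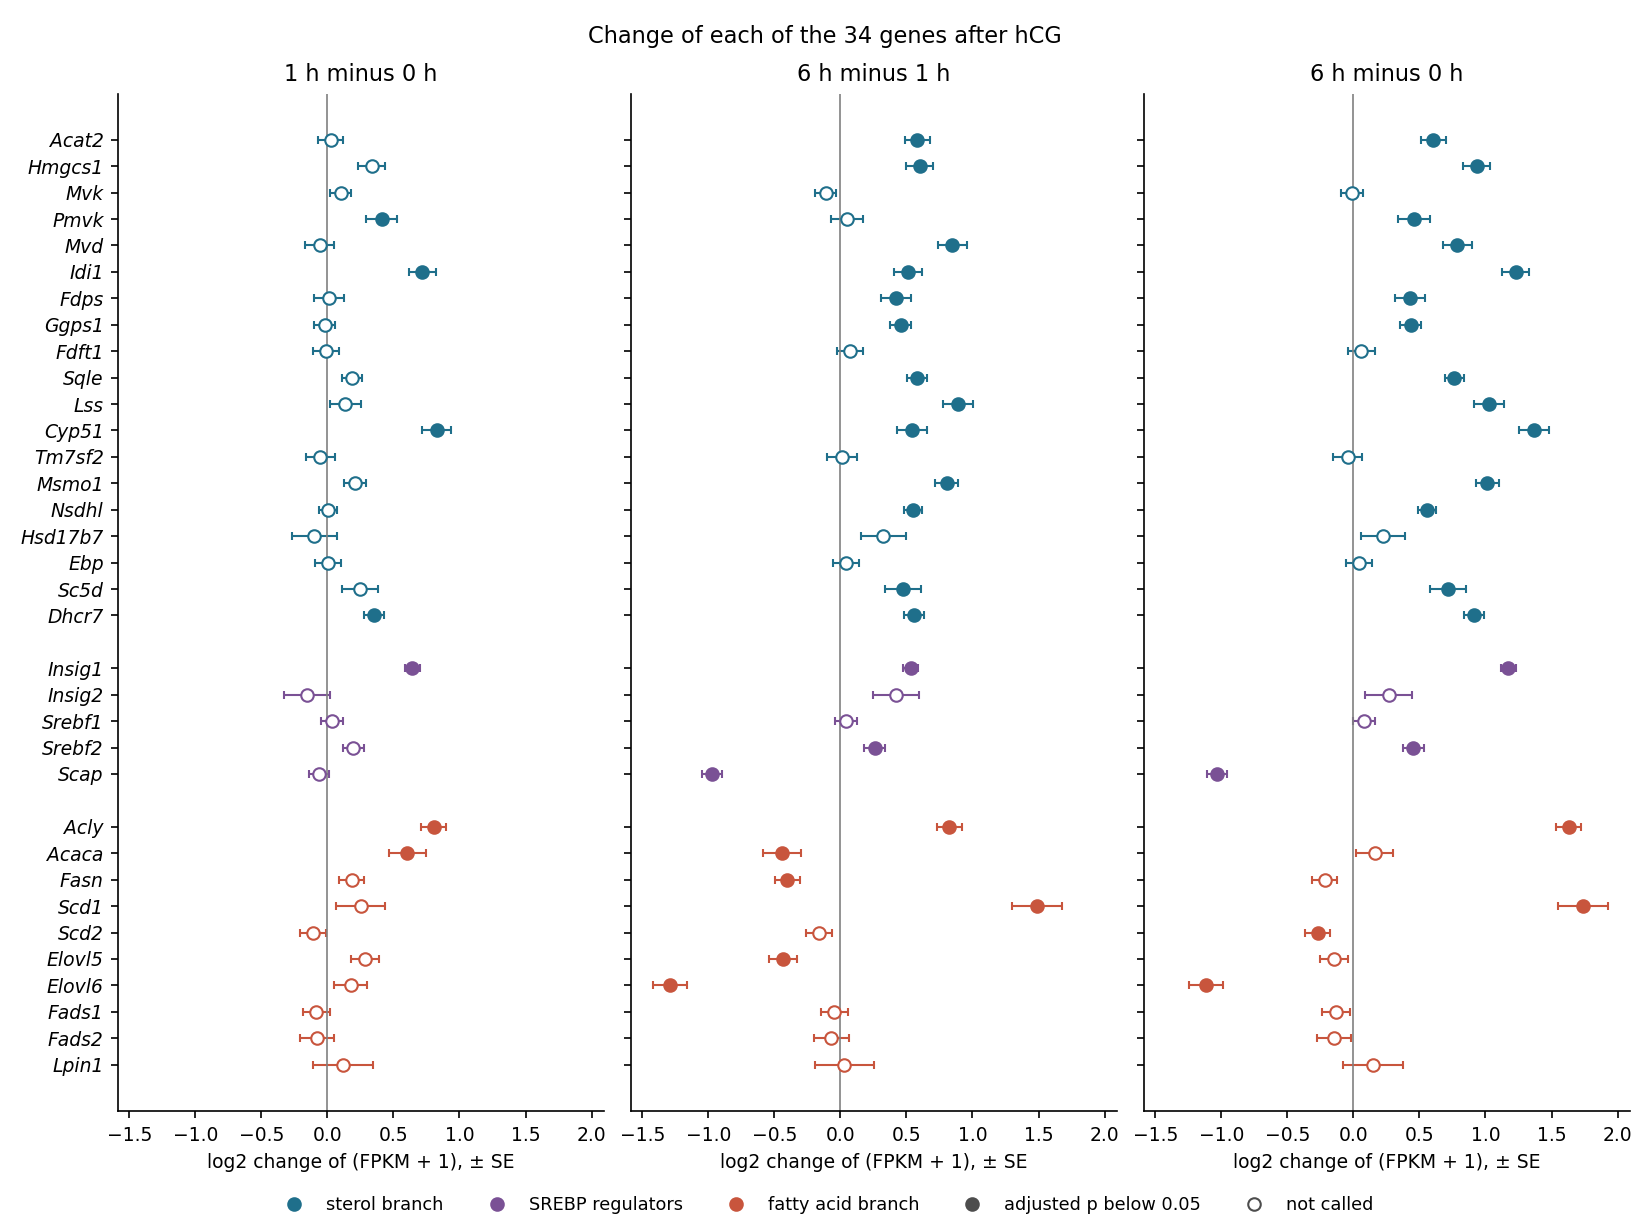
Log2 change of FPKM + 1 (horizontal axes, ± SE) of each of the 34 genes (vertical axis, in pathway order) for 1 h minus 0 h, 6 h minus 1 h and 6 h minus 0 h. Filled points have an adjusted p below 0.05: 14 of 19 sterol genes at 6 h against 0 h, all higher, and 4 of 10 fatty acid genes, *Acly* and *Scd1* higher and *Elovl6* and *Scd2* lower.

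Between 1 h and 6 h, 13 of 19 sterol genes were called higher and 0 lower (68.4%), where 53.5% of all genes were called, 26.7% higher and 26.9% lower. The comparisons share libraries and are not independent. Of the sterol genes 3 were called higher at both steps (*Cyp51*, *Dhcr7* and *Idi1*) and 10 at the second step alone. *Pmvk* was called at the first step alone, with 22.2 ± 1.32 FPKM at 6 h and 21.5 ± 3.51 FPKM at 1 h (adjusted p = 0.748), and 5 were called at neither. A call at the second step alone is not a test that the steps differed. Among the 10 called at the second step alone, *Lss* (0.89 ± 0.12), *Mvd* (0.85 ± 0.11) and *Msmo1* (0.80 ± 0.08) changed most on the log2 scale between 1 and 6 h. Their limma adjusted p-values were 0.000155, 0.000159 and 3.90e-05. *Msmo1* was among those with every 1 h library already above every 0 h library (0.21 ± 0.08, not called).

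Of the 5 regulators, 2 were called higher (*Insig1* and *Srebf2*) and 1 lower (*Scap*) at 6 h against 0 h, beside 28.8% and 27.9% of all genes tested, and *Insig2* and *Srebf1* were not called. *Insig1*, which retains SREBPs in the endoplasmic reticulum, was 2.28-fold higher at 6 h than at 0 h (1.17 ± 0.06, adjusted p = 2.73e-07). *Scap* (chromosome 9, 110333288 to 110384950), whose product escorts SREBPs to the Golgi, measured 185, 180 and 161 FPKM at 0 h, 173, 153 and 177 FPKM at 1 h, and 86.8, 84.4 and 84.2 FPKM at 6 h. The 0 h and 1 h libraries overlapped and every 6 h library lay below them, a log2 change of −1.03 ± 0.08 against 0 h (adjusted p = 2.97e-06). *Scap* was thus the most abundant of the 5 regulators at 0 h, and *Insig1* at 6 h. *Srebf2* measured 47.4, 44.5 and 43.1 FPKM at 0 h, 53.9, 46.4 and 55.0 FPKM at 1 h, and 58.6, 61.1 and 66.3 FPKM at 6 h. Its 6 h libraries were above all others, with a log2 change of 0.45 ± 0.08 against 0 h (adjusted p = 0.000956) and 0.26 ± 0.08 against 1 h (0.0218). Its call against 1 h ended without replicate 2 at 1 h (0.0643) and without replicate 2 (0.0502) or 3 (0.0775) at 6 h.

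*Srebf1* measured 32.3, 31.0 and 28.8 FPKM at 0 h, 31.2, 29.3 and 34.2 FPKM at 1 h, and 30.7, 31.2 and 35.6 FPKM at 6 h. The times overlapped, and the log2 change at 6 h against 0 h was 0.08 ± 0.08 (adjusted p = 0.451), with a sign that turned negative when libraries were scaled to a common sum or quantile normalized. *Insig2*, the second INSIG gene, averaged 20.8 ± 4.38 FPKM at 6 h and 17.0 ± 2.53 FPKM at 0 h (adjusted p = 0.222). *Insig1* made up 86.8% ± 2.37 of the summed FPKM of the INSIG pair at 6 h, against 77.8% ± 3.11 at 0 h.

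In the fatty acid branch 2 of 10 genes were called higher (*Acly* and *Scd1*) and 4 lower (*Acaca*, *Fasn*, *Elovl5* and *Elovl6*) at 6 h against 1 h, beside 26.7% and 26.9% of all genes tested, and 4 were not called. Its supply enzyme *Acly* (chromosome 11, 100476353 to 100528000) was 3.10-fold higher at 6 h than at 0 h (1.63 ± 0.10, adjusted p = 6.90e-07). *Acaca*, acetyl-CoA carboxylase and the committed step of fatty acid synthesis, measured 57.9, 63.9 and 52.2 FPKM at 0 h, 97.1, 70.6 and 101 FPKM at 1 h, and 69.9, 56.4 and 69.0 FPKM at 6 h. The 1 h libraries stood above the others, and those of 6 h and 0 h overlapped. It rose by 0.60 ± 0.14 at 1 h against 0 h (adjusted p = 0.0185) and fell by 0.44 on the log2 scale between 1 and 6 h (0.0235). The first call ended without any of 4 libraries, replicates 1 and 3 at 0 h and at 1 h (adjusted p = 0.0546 to 0.0730), and under quantile normalization (0.0619). The second call ended without replicate 1 or 3 at 1 h or replicate 2 at 6 h (0.0805, 0.0835 and 0.0916). *Fasn*, fatty acid synthase, measured 70.1, 68.6 and 64.4 FPKM at 0 h, 81.7, 67.5 and 82.7 FPKM at 1 h, and 52.5, 58.7 and 63.5 FPKM at 6 h. Its 6 h libraries were below all others, which passed against 1 h (−0.40 ± 0.10, adjusted p = 0.00563) but not against 0 h (−0.22 ± 0.10, 0.0765). The change against 0 h was called lower when libraries were scaled to a common sum (−0.31, 0.00645), under quantile normalization (−0.37, 0.00212), with the 6 libraries compared alone (0.0477) and without replicate 2 at 1 h (0.0347) or replicate 3 at 6 h (0.0439).

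The stearoyl-CoA desaturase genes *Scd1* and *Scd2*, whose products put a double bond into saturated fatty acids, moved apart. *Scd1*, on chromosome 19 (44394455 to 44407879, minus strand), measured 18.7, 20.8 and 18.8 FPKM at 0 h, 34, 20.4 and 18.2 FPKM at 1 h, and 62.9, 65.0 and 73.8 FPKM at 6 h. The 1 h libraries were uneven, with replicate 1 alone above the 0 h range, and the 6 h libraries stood above all others. The log2 change at 6 h against 0 h was 1.74 ± 0.19 (adjusted p = 3.80e-05), the highest of the 34. *Scd2*, on the same chromosome (44293674 to 44306864, plus strand) and the most abundant of the 34 at each time, had 726, 727 and 694 FPKM at 0 h, 741, 584 and 675 FPKM at 1 h, and 567, 584 and 629 FPKM at 6 h. Its 6 h libraries lay below those of 0 h (−0.27 ± 0.10, adjusted p = 0.0334), a call that ended with no filter on low values (0.0619), with the replicate block (0.0515), and without any single 0 h library or replicate 1 or 2 at 6 h (adjusted p = 0.0523 to 0.0967). *Scd1* made up 10.2% ± 0.291 of the summed FPKM of the pair at 6 h and 2.64% ± 0.138 at 0 h, while the sum was 661 ± 37.8 FPKM at 6 h and 735 ± 19.3 FPKM at 0 h. As related copies the pair could share reads.

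*Elovl6* (chromosome 3, 129532355 to 129638495), which elongates palmitate, measured 129, 109 and 120 FPKM at 0 h, 157, 107 and 144 FPKM at 1 h, and 57.5, 51.5 and 54.4 FPKM at 6 h. The 0 h and 1 h libraries overlapped and those of 6 h were far below, at 0.457 times the 0 h mean (−1.11 ± 0.13, adjusted p = 5.80e-05). *Elovl5*, which elongates polyunsaturated fatty acids, averaged 148 ± 21.2 FPKM at 6 h and 199 ± 18.9 FPKM at 1 h (−0.43 ± 0.11, adjusted p = 0.00659), with 163 ± 6.88 FPKM at 0 h. The desaturases *Fads1* and *Fads2*, which act on polyunsaturated fatty acids, passed no comparison. *Fads1* averaged 79.5 ± 6.499 FPKM at 6 h and 87.2 ± 5.25 FPKM at 0 h, and *Fads2* averaged 81.1 ± 3.92 FPKM at 6 h and 90.2 ± 9.35 FPKM at 0 h. Under quantile normalization *Elovl5*, *Fads1*, *Fads2* and *Fasn* joined *Elovl6* and *Scd2* as lower at 6 h against 0 h. *Lpin1*, a phosphatidate phosphatase of glycerolipid synthesis, measured 1.97, 2.24 and 2.09 FPKM at 0 h, 1.96, 4.03 and 1.55 FPKM at 1 h, and 3.01, 2.23 and 2.12 FPKM at 6 h. It was the least abundant of the 34 and its times overlapped.

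The tables give several rows for some genes, without transcript names. The 34 genes had 103 rows, 22 of the genes had more than 1 row, and 22 had over 90% of their FPKM in a single row. The makeup of *Acly* differed between times: the third row held 21.3% of the gene's FPKM at 1 h and 10.4% at 0 h, and the second row 36.3% at 6 h and 28.6% at 0 h. The 3 largest rows of *Acly* were each higher at 6 h than at 0 h. In *Acaca* the third row averaged 14.3 FPKM at 1 h and 5.41 FPKM at 0 h, and 13.4 FPKM at 6 h, while the fourth averaged 3.59 FPKM at 6 h and 8.70 FPKM at 0 h. The gene's total was thus close at 6 h and 0 h with a different makeup. The main row of *Scap* held 84.7% of its FPKM at 6 h and 90.9% at 0 h, and averaged 72.1 FPKM at 6 h and 160 FPKM at 0 h. *Srebf1* had 3 rows, of which the largest held 74.0% at 6 h and 65.3% at 0 h. The labels do not say how reads were divided among rows, and no row was tested.

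**Figure D4:**
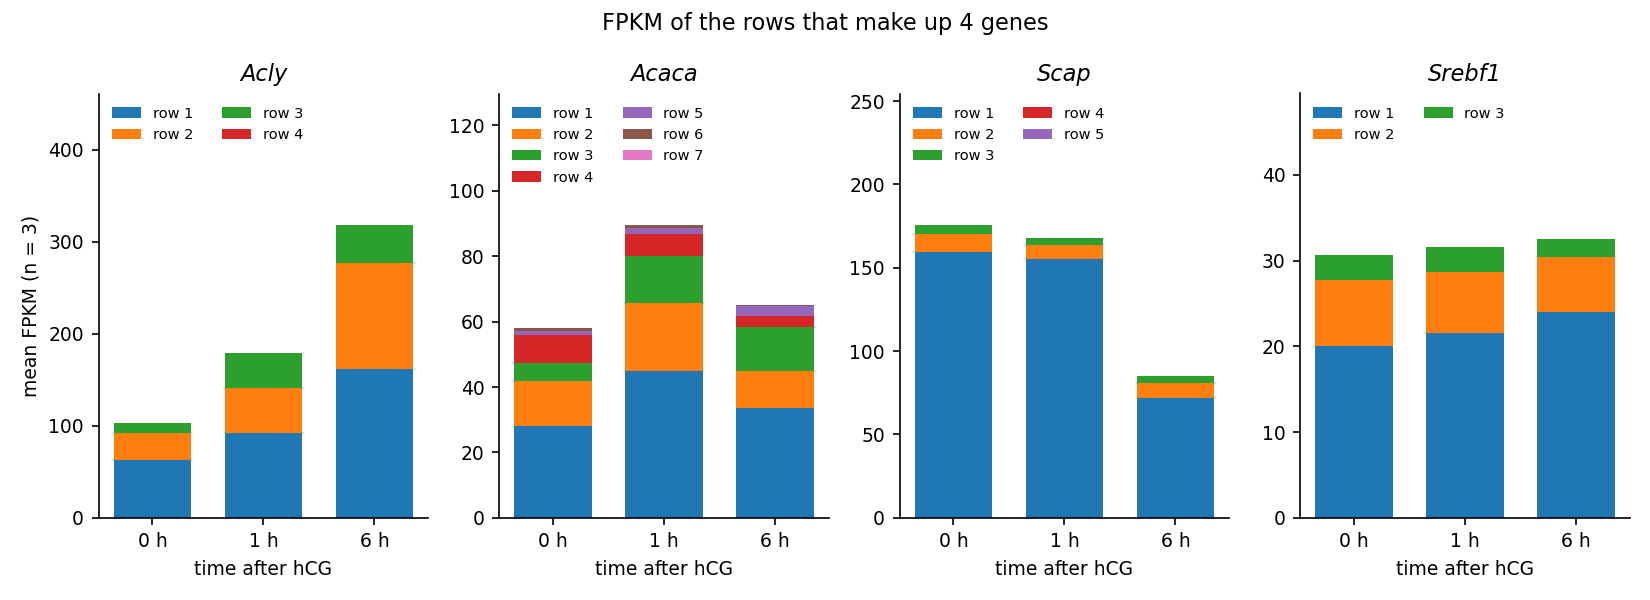
Mean FPKM (vertical axes, from 0, n = 3 libraries) at 0, 1 and 6 h after hCG (horizontal axes) of *Acly*, *Acaca*, *Scap* and *Srebf1*, stacked by the rows of the deposited tables and numbered by abundance. The third row of *Acaca* is larger at 1 h and 6 h than at 0 h, and the fourth row is smaller at 6 h than at 0 h.

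Other genes of the same pathways were listed from general knowledge. Of 14 further genes of SREBP control, 5 were called higher (35.7%) and 8 lower (57.1%) at 6 h against 0 h, where all genes tested gave 28.8% and 27.9%. *Mbtps1*, the Golgi protease that makes the first cut of SREBPs, averaged 51.6 ± 2.495 FPKM at 6 h and 99.2 ± 4.06 FPKM at 0 h (−0.93 ± 0.07, adjusted p = 3.04e-06). *Prkaa2*, a catalytic subunit of AMP-activated kinase (−1.06 ± 0.10), and *Rnf145*, a ubiquitin ligase gene (−0.83 ± 0.10), were also lower. *Mbtps2*, the second protease, fell too (−0.52, adjusted p = 0.00315) and is named here beside its partner, outside the rule for naming. In the first hour *Syvn1*, a ubiquitin ligase of the endoplasmic reticulum, was the only called gene of these 14 (0.69 ± 0.09, adjusted p = 0.00117). That was a share of 7.14% beside 9.68% called higher over all genes tested.

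Of 16 further sterol and isoprenoid genes, 4 were called higher (25%) and 5 lower (31.2%) at 6 h against 0 h, close to the 28.8% and 27.9% of all genes tested. *Acat1*, the mitochondrial thiolase, averaged 6.64 ± 0.443 FPKM at 6 h and 17.8 ± 0.814 FPKM at 0 h (−1.30 ± 0.08, adjusted p = 9.67e-07), beside the rise of its cytosolic counterpart *Acat2*. *Cyb5a*, an electron carrier, fell as well (−0.93 ± 0.11). *Por*, the electron donor to *Cyp51* and *Sqle*, was higher at 1 h than at 0 h (0.99 ± 0.14, adjusted p = 0.00119) and lower at 6 h than at 1 h (−0.56 ± 0.14). Also called at 1 h against 0 h were *Stard4*, a sterol carrier gene (0.37 ± 0.10), and, lower, *Coq2* of ubiquinone synthesis (−0.31 ± 0.08).

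Of 22 further fatty acid genes tested among 27 listed, 11 were called higher (50%) and 5 lower (22.7%) at 6 h against 0 h, where all genes tested gave 28.8% and 27.9%. *Acsl4*, which activates arachidonic acid, averaged 284 ± 45.7 FPKM at 6 h and 55.4 ± 11.3 FPKM at 0 h (2.34 ± 0.15, adjusted p = 1.39e-06). *Acacb*, the carboxylase whose malonyl-CoA restrains fatty acid oxidation, averaged 3.65 ± 0.432 FPKM at 6 h and 17.2 ± 0.535 FPKM at 0 h (−1.97 ± 0.14). *Mid1ip1*, a partner of acetyl-CoA carboxylases, averaged 90.3 ± 2.85 FPKM at 6 h and 357 ± 37.7 FPKM at 0 h (−1.97 ± 0.11). Within the elongation cycle, which these genes share with *Elovl5* and *Elovl6*, *Hacd2* (0.96) and *Hsd17b12* (0.67) rose and *Tecr* (−0.52) fell. All 3 were chosen after their values were seen. The related *Hacd3*, more abundant than *Hacd2*, averaged 66.9 ± 11.9 FPKM at 6 h and 66.3 ± 1.23 FPKM at 0 h. It was not called (limma adjusted p = 0.999), nor was *Hacd1* (0.0788). In the first hour only *Me1* (0.53 ± 0.13), the malic enzyme that supplies NADPH, and the desaturase-like *Fads3* (0.40 ± 0.07) were called among the 22, a share of 9.09% beside 9.68% called higher over all genes tested.

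**Figure D5:**
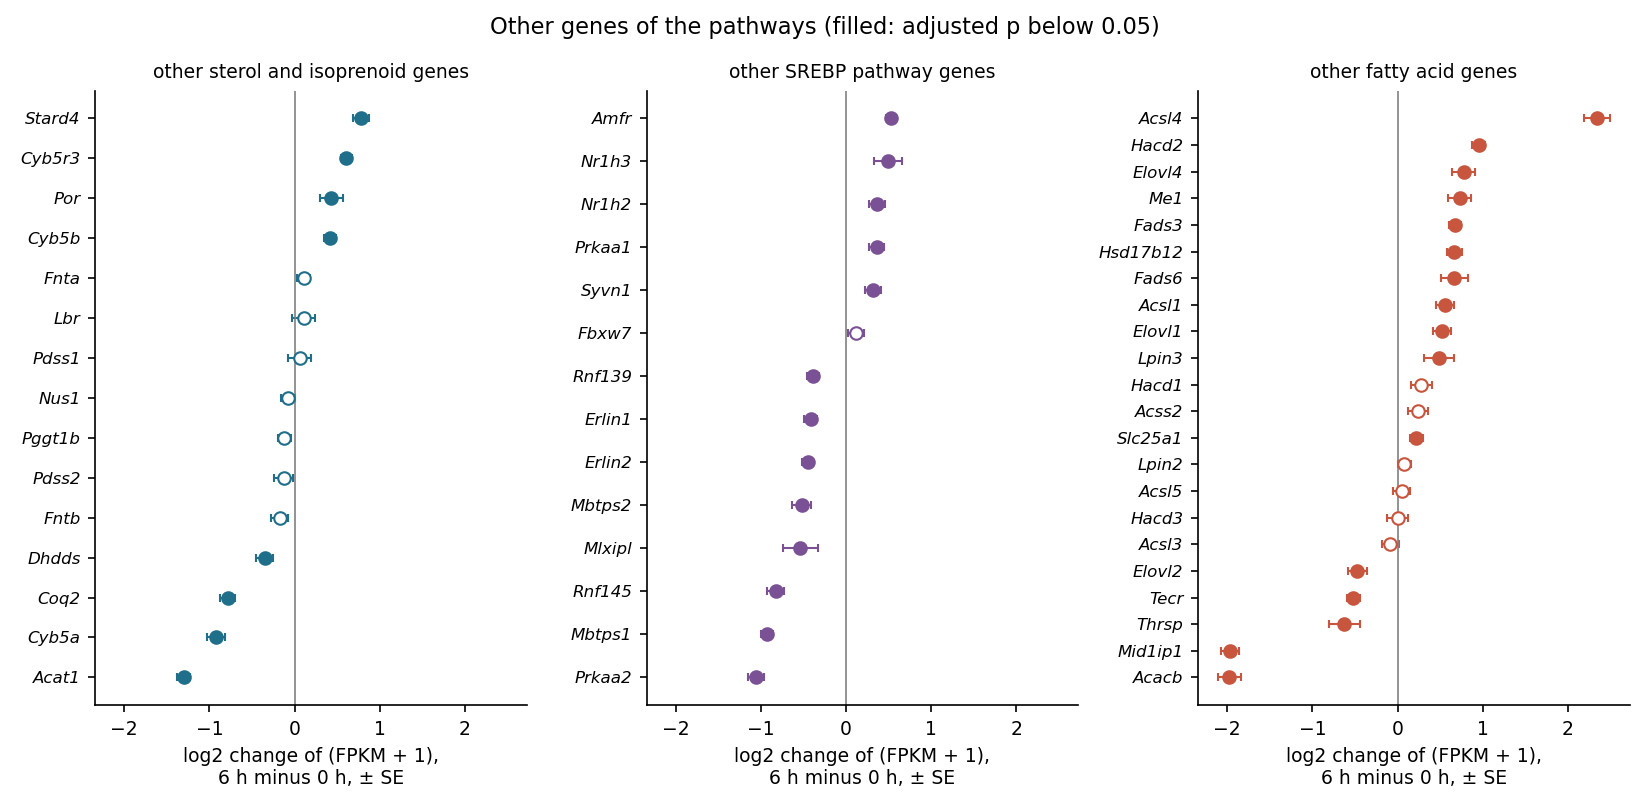
Log2 change of FPKM + 1 at 6 h minus 0 h (horizontal axes, ± SE) of tested genes of 3 further lists (vertical axes, sorted by change), filled where the adjusted p was below 0.05. *Acsl4* is highest at 2.34, and *Acacb* and *Mid1ip1* are lowest at −1.97.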

How the data were processed

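The authors deposited 1 table of FPKM values per library, with 54759 rows each. Counts were not used here. Per the submitters' processing notes, HISAT2 2.0.5 and the build mm10 were used, while the FPKM program, annotation and strand setting are not stated in the labels. Rows were summed per gene identifier. Depth is unknown, because low values were not whole multiples of a read, so no counting interval is given, and an exact 0 may be a failed estimate. Log2(FPKM + 1) of 14535 genes (at least 3 libraries at 1 FPKM or above) was fitted with limma 3.58.1 in R 4.3.3 (3 group means, trended prior variance, 6 residual degrees of freedom), with p-values adjusted over all genes tested. Log2 changes on this scale understate those of low genes, and folds are ratios of mean FPKM. The procedure was tested on simulated data. The members and lists were chosen with earlier results of these data known. Named in full were the 4 called members per branch and comparison with the largest changes, *Hmgcs1*, *Sqle*, *Insig1*, *Srebf1*, *Srebf2*, *Fasn*, *Scd1*, *Scd2* and *Lpin1*, and up to 3 called genes per other list. Gene positions come from GENCODE M21 (mm10), and promoter windows from RefSeq (GRCm38.p6). Alternatives were scaling, quantile normalization, pseudocount, filter, prior variance, single rows, a replicate block, the 6 libraries compared alone, leaving out each library, and leaving *Ggps1* and *Lpin1* out of the counts. Marker lists for granulosa, oocyte, theca, stroma, endothelium, leukocyte, erythroid, fat and surface epithelial cells were examined beside the results. A tested gene of the further sterol list, included in its counts, is not reported here or drawn.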

Additional observations from a re-analysis of the deposited data

How the results depend on the processing

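Of 1149 values recomputed for 64 single-gene results, 1083 kept their direction and their side of the threshold, 39 lost the call, 11 gained one and 16 changed sign, and the cause of these changes was not tested. Scaling to a common FPKM sum left 2 sterol genes higher at 1 h against 0 h (*Cyp51* and *Idi1*) and called 1 regulator (*Scap*) and 1 fatty acid gene (*Scd2*) lower. Quantile normalization gave the same 2, 1 and 1, left 1 fatty acid gene higher at 1 h (*Acly*), and called 6 fatty acid genes lower at 6 h against 0 h. Of all 14535 genes tested, it called 4423 lower at 6 h against 0 h, where the main fit called 4051. The count of fatty acid genes lower at 6 h against 0 h was 1 with no filter on low values and 1 with the replicate block (*Elovl6* in both).

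Leaving out each library in turn gave, at 1 h against 0 h, 2 to 4 sterol genes, 1 to 2 regulators and 1 to 3 fatty acid genes called higher. It gave 1 to 3 fatty acid genes lower at 6 h against 0 h and 1 to 2 regulators higher at 6 h against 1 h. The 2 sterol genes came without replicate 1 at 1 h, and both counts of 3 without replicate 2 at 1 h, with the count of 3 at 6 h against 0 h also without replicate 3 at 6 h. Without replicate 2 at 1 h, *Elovl6* and *Srebf2* (adjusted p = 0.0329) were called higher at 1 h against 0 h, and *Scd2* lower at 6 h against 1 h (adjusted p = 0.0289). Over the whole table at 1 h, leaving out a library gave 904 to 1601 genes higher and 295 to 1223 lower, against 1407 and 869 with all libraries.

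The values that changed sign were those of uncalled genes. At 1 h against 0 h they were −0.021 for *Sqle* and −0.026 for *Fasn* under quantile normalization, and −0.12 and −0.080 for *Srebf1* with a common sum and under quantile normalization. With single libraries left out, *Srebf1* ranged over −0.022 to 0.088, *Scd1* over −0.012 to 0.42 and *Lpin1* over −0.17 to 0.32. At 6 h against 0 h *Srebf1* changed by −0.014 with a common sum and by −0.037 under quantile normalization. At 6 h against 1 h it ranged over −0.023 to 0.10 with single libraries left out, and *Lpin1* over −0.17 to 0.32, with −0.37 in the most abundant row alone.

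Libraries of different times with the same replicate number deviated together with r of −0.078 to 0.147, and those with different numbers with r of −0.151 to 0.086. Of the same-number pairs only replicate 2 at 1 h and 6 h was below 0 (−0.078), while different-number pairs went both ways and none was over 0.1. The number was not taken as a pairing because not every same-number pair was over 0.1, which does not show that the libraries are unpaired. With the replicate block *Scd2* (adjusted p = 0.0515, 6 h against 0 h) and *Pmvk* (0.0635, 1 h against 0 h) lost their calls. *Hmgcs1* gained one (0.0338, 1 h against 0 h).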

Other observations

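Among the 1 h libraries, replicate 2 had the lowest summed FPKM over the sterol branch, at 1315 FPKM where replicates 1 and 3 had 1602 and 1397, and over the fatty acid branch, at 1355 FPKM where replicates 1 and 3 had 1701 and 1572. The median coefficient of variation within a time over the 19 sterol genes came to 7.54% for 0 h, 11.5% for 1 h and 5.94% for 6 h, and over the 10 fatty acid genes to 6.37% for 0 h, 16.3% for 1 h and 8.40% for 6 h.

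Among the other markers examined, leukocyte genes summed to 10.2 to 13.8 FPKM at 6 h and 11.9 to 19.8 FPKM at 0 h (1 of 4 tested called lower), and erythroid genes to 69.5 to 133 FPKM at 6 h and 133 to 202 FPKM at 0 h (2 of 4 tested called lower). Surface epithelial genes summed to 4.36 to 6.57 FPKM at 6 h and 3.73 to 5.13 FPKM at 0 h, with 0 of 3 tested genes called. Over all genes tested, 28.8% were called higher and 27.9% lower at 6 h against 0 h. *Retn*, which encodes the hormone resistin, was listed at 0 in every 0 h library, at 1.97, 1.80 and 2.23 FPKM at 1 h and at 7.70, 8.53 and 6.35 FPKM at 6 h.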
